A study of Arabidopsis thaliana with 12 samples.

Results

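The plant U-box (PUB) genes of Arabidopsis thaliana encode ubiquitin ligases, and 9 of them were followed here in shoots of the AVP1 mutant lcs7 and of its wild type. They were chosen by name: every gene whose array symbol is PUB followed by a digit and whose probe set names a single gene. These 9 were PUB15 (AT5G42340), PUB19 (AT1G60190), PUB22 (AT3G52450), PUB23 (AT2G35930), PUB24 (AT3G11840), PUB25 (AT3G19380), PUB26 (AT1G49780), PUB43 (AT1G76390) and PUB49 (AT5G67530), out of 13356 genes tested, 1557 of which carry a symbol. Each of the 9 had 1 probe set, so none had to be chosen between probe sets. A current RefSeq gene table names 23 U-box genes of this kind, and the other 14 are not analysed here.

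Total RNA came from shoots of 14-day-old seedlings raised on vertical agar plates of Yamagami medium with sucrose, and was hybridised to Affymetrix arrays. The 4 groups of 3 biological replicates were lcs7 at 0.3 mM calcium, lcs7 at 2 mM calcium, Col-0 at 0.3 mM calcium and Col-0 at 2 mM calcium. Both lines are in the Col-0 ecotype and shared medium, age and light regime. lcs7 is a single mutant line of AVP1, the gene of the proton-pumping pyrophosphatase of the vacuolar membrane, so line and mutation cannot be told apart. AVP1 itself is not analysed here, and the labels therefore have no check by the targeted gene.

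A U-box ligase takes ubiquitin from a conjugating enzyme (E2) and passes it to a substrate protein, which is often then degraded by the 26S proteasome. In Arabidopsis, PUB22, PUB23 and PUB24 are close relatives that together damp the immune responses set off by microbial patterns, and PUB22 and PUB23 also restrain drought tolerance. PUB25 and PUB26 act on the immune kinase BIK1 and, in the cold, on the transcription factor MYB15. PUB19 restrains responses to abscisic acid and drought, PUB43 is a close relative of the senescence-linked ligase SAUL1, and PUB49 joins a U-box to a cyclophilin domain.

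Values below are probe set signals on a linear scale, which are compared between groups and not between genes, since probes differ in brightness. Differences are log2 ratios between groups of 3 arrays, given with the SE, tested with limma and adjusted over all 13356 genes. Genes with an adjusted p below 0.05 count as called. Array medians lay between 161.3 and 187.6, and a signal under 20 was taken as near background. PUB15 was under 20 on 8 of the 12 arrays and PUB19 on 2, and the other 7 genes were at or above 20 on every array.

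Some arrays of Col-0 at 0.3 mM calcium stood apart from their group. The arrays were placed by 11 genes picked after the data were seen. These read at least 8-fold higher on every lcs7 array, at both calcium levels, than on any Col-0 array at 2 mM. Col-0 at 0.3 mM was not part of that rule. Places are medians over these genes, in % of the way from Col-0 at 2 mM to lcs7 at 0.3 mM. Replicate 1 of Col-0 at 0.3 mM lay at -0.1%. Replicate 2 lay at 25.5%, with single genes from 1.3 to 65.2%, and replicate 3 at 37.2%, with single genes from 1.5 to 67.8%. Replicate 1 had in turn the lowest weight of all arrays, 0.579, when arrays were weighted by their fit. On the same scale PUB23 stood at 1.0, 29.0 and 11.2% in replicates 1, 2 and 3, and PUB24 at 24.8, 23.2 and 44.3%, so PUB23 was lowest in replicate 1 of this group and PUB24 was not. PUB43 stood at 62.7, -38.3 and -35.1%. Results of the PUB genes that use this group are given below without these arrays where leaving them out changes a call or moves a value markedly.

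PUB23 and PUB24 had their highest signals in lcs7 at low calcium, and PUB43 shared this peak. PUB23 read 1781.2, 1095.2 and 888.0 in lcs7 at 0.3 mM, against 135.4, 201.6 and 262.4 in lcs7 at 2 mM. In Col-0 it read 136.9, 452.5 and 252.3 at 0.3 mM, against 111.0, 74.6 and 190.6 at 2 mM. Every lcs7 array at 0.3 mM was thus above every array of the other groups, while the 2 Col-0 groups and lcs7 at 2 mM overlapped. The means ran in the order 1255 ± 468 in lcs7 at 0.3 mM, 281 ± 160 in Col-0 at 0.3 mM, 199.8 ± 63.5 in lcs7 at 2 mM and 125.4 ± 59.3 in Col-0 at 2 mM (SD, n = 3 each).

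PUB24 read 589.6, 546.5 and 612.3 in lcs7 at 0.3 mM, against 278.5, 178.6 and 190.4 in lcs7 at 2 mM. In Col-0 it read 236.4, 229.3 and 326.3 at 0.3 mM, against 123.1, 114.6 and 129.1 at 2 mM. Here both ends of the range stood clear: the lcs7 arrays at 0.3 mM were above all others and the Col-0 arrays at 2 mM below all others, whereas lcs7 at 2 mM and Col-0 at 0.3 mM overlapped. Means were 582.8 ± 33.4 in lcs7 at 0.3 mM, 264 ± 54.1 in Col-0 at 0.3 mM, 215.8 ± 54.6 in lcs7 at 2 mM and 122.3 ± 7.29 in Col-0 at 2 mM (SD, n = 3 each).

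PUB43 read 468.6, 416.6 and 371.2 in lcs7 at 0.3 mM, against 245.9, 188.8 and 255.6 in lcs7 at 2 mM. In Col-0 it read 375.4, 258.0 and 261.7 at 0.3 mM, against 331.5, 268.5 and 307.6 at 2 mM. The 2 lcs7 groups lay apart, on either side of Col-0 at 2 mM. Replicate 1 of Col-0 at 0.3 mM was higher than the others of its group and overlapped the lowest lcs7 array at 0.3 mM.

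**Figure D1:**
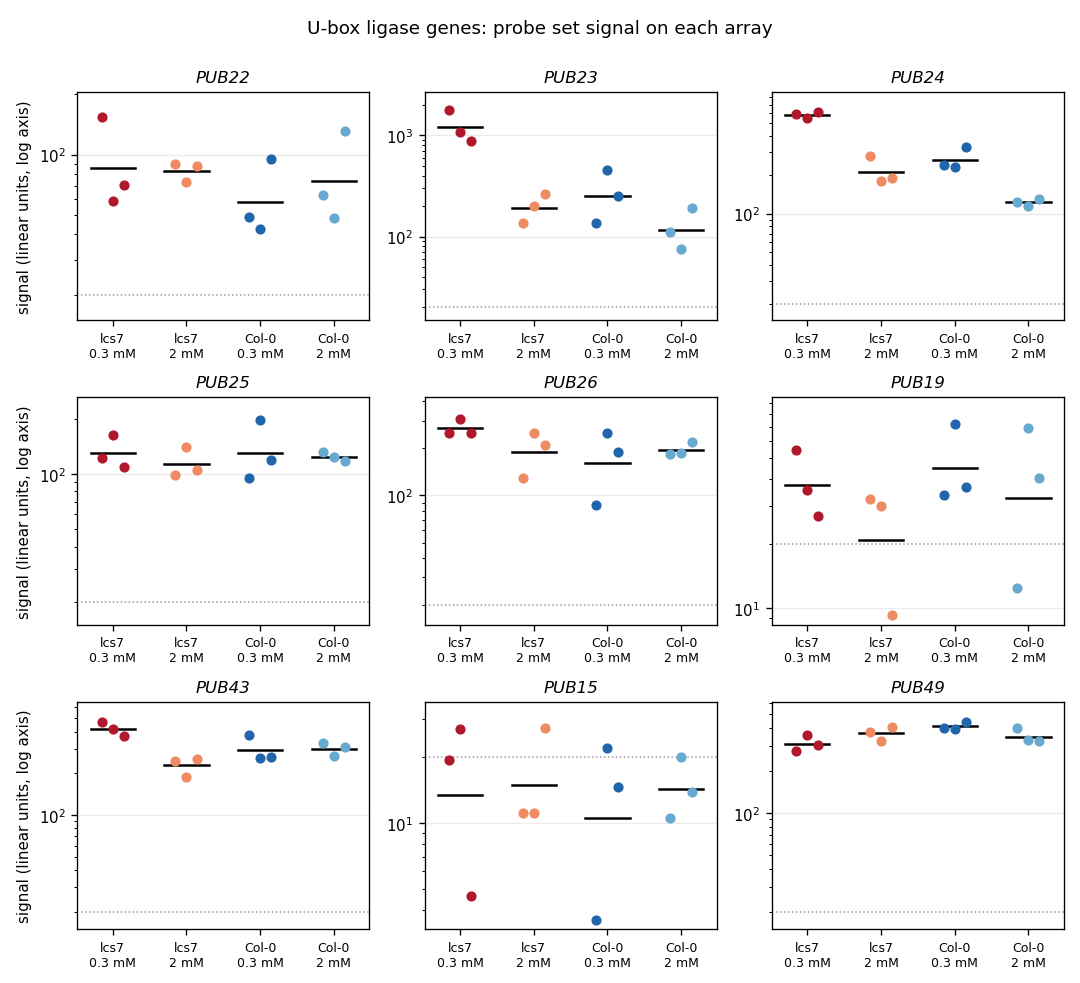
Signal of each of the 9 U-box genes on each array (points, log axis with its own range in each panel), by group, with the geometric mean as a bar and a dotted line at 20, near background. PUB23 and PUB24 lie highest on the 3 lcs7 arrays at 0.3 mM, the 2 lcs7 groups of PUB43 are apart, and the points of PUB15 and PUB19 scatter near the dotted line.

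The low calcium response of lcs7 gave the most calls. PUB23, PUB24 and PUB43 rose at 0.3 against 2 mM calcium in lcs7, and none of the 9 fell. PUB23 rose 6.23-fold (log2 2.64 ± 0.50, adjusted p = 0.00529), the 176th largest positive difference of all genes. PUB24 rose 2.75-fold (log2 1.46 ± 0.19, adjusted p = 0.000853) and PUB43 1.83-fold (log2 0.87 ± 0.18, adjusted p = 0.00917). In bulk shoots, a change in the number of cells of a type and a change in RNA per cell cannot be told apart.

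These 3 of 9 genes make 33.3%, beside 21.8% of all genes called in this comparison, and 10.0% of all genes called higher. Arrays of the 2 lcs7 groups did not overlap for the same 3 genes, beside 41.7% of all genes. The median difference over the 9 was 0.505, against -0.048 over all genes. With 9 genes, 1 gene more or fewer moves the share by 11.1 percentage points, and nothing particular to the family is read from it. All 3 calls held in each of the 12 fits that left out 1 array, with adjusted p up to 0.0226 for PUB23, 0.00501 for PUB24 and 0.0364 for PUB43.

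In the same comparison the other 6 genes were not called. PUB26 read 252.1, 309.4 and 250.2 in lcs7 at 0.3 mM, against 130.0, 251.8 and 208.6 in lcs7 at 2 mM, a difference of 0.51 ± 0.37 (adjusted p = 0.387). PUB22, the close relative of PUB23 and PUB24, read 153.7, 58.5 and 70.5 at 0.3 mM, against 89.4, 72.8 and 87.8 at 2 mM. Replicate 1 at 0.3 mM was above every 2 mM array and the other 2 were below all of them, so the groups overlapped through replicate 1 only. Its difference was 0.05 ± 0.47, with a 95% interval from -1.01 to 1.11, below the interval of PUB23, which ran from 1.52 to 3.76, and touching that of PUB24, from 1.04 to 1.89. PUB25 (0.19 ± 0.27), PUB49 (-0.24 ± 0.14), PUB19 (0.84 ± 0.69) and PUB15 (-0.16 ± 0.81) had adjusted p from 0.273 to 0.921.

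Set against Col-0 at 0.3 mM calcium, lcs7 shows how the lines differ once calcium is short. PUB23 rose 4.8-fold (log2 2.26 ± 0.50, adjusted p = 0.014) and PUB24 2.23-fold (log2 1.16 ± 0.19, adjusted p = 0.00354), with no overlap of arrays for either gene. They are 2 of the 9 genes, or 22.2%, beside 16.8% of all genes called and 6.99% called higher. Without Col-0 replicates 2 and 3 at 0.3 mM both were still called, PUB23 at 3.13 ± 0.60 (adjusted p = 0.0312) and PUB24 at 1.30 ± 0.25 (adjusted p = 0.0299), where the 1 array left in that group takes the spread of the rest.

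The PUB23 call rested in part on replicate 1 of lcs7 at 0.3 mM, its highest array: without it the difference was 1.98 ± 0.55 with adjusted p = 0.0536. PUB43, at 0.51 ± 0.18 (adjusted p = 0.0963), was not called. Without replicate 1 of Col-0 at 0.3 mM, the array that overlapped, PUB43 came to 0.68 ± 0.17 (adjusted p = 0.0275), and without the other 2 Col-0 arrays it came to 0.15 ± 0.23 (adjusted p = 0.763).

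PUB49 was the 1 gene of the 9 whose lcs7 arrays all lay below Col-0 at 0.3 mM. It read 275.8, 359.2 and 302.5 in lcs7, against 400.5, 395.2 and 440.1 in Col-0. The difference of -0.41 ± 0.14 did not pass (adjusted p = 0.0803), though it did in 5 of 13 other settings, such as quantile normalization (adjusted p = 0.0439). Without Col-0 replicates 2 and 3 it was -0.37 ± 0.21 (adjusted p = 0.387). It had the smallest scatter within groups of the 9, an SD of 0.16 on the log2 scale, against 0.29 for the median gene. Arrays of lcs7 and Col-0 did not overlap for 3 of the 9 genes, PUB23, PUB24 and PUB49, beside 35.7% of all genes.

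PUB26 differed by 0.74 ± 0.37 (adjusted p = 0.217), with 87.2, 251.9 and 190.2 in Col-0 at 0.3 mM, where replicate 1 was the low array. Against replicate 1 alone, without Col-0 replicates 2 and 3, PUB26 was called (1.63 ± 0.34, adjusted p = 0.0398), and without replicate 1 it came to 0.30 ± 0.27 (adjusted p = 0.528), so the value turned on which Col-0 arrays were used. PUB22, with 49.1, 42.7 and 94.6 in Col-0 at 0.3 mM, differed by 0.56 ± 0.47 (adjusted p = 0.486). PUB25 stood at -0.01 ± 0.27, with an interval from -0.61 to 0.59 that holds neither the PUB23 nor the PUB24 estimate. Against Col-0 replicate 1 alone PUB25 came to 0.45 ± 0.27 (adjusted p = 0.398) and PUB22 to 0.81 ± 0.65 (adjusted p = 0.55). PUB15 and PUB19 had adjusted p of 0.828 and 0.849, with intervals over 3 log2 units wide.

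At 2 mM calcium, lcs7 against Col-0 gave no call among the 9 genes by limma, beside 2.75% of all genes, and 1, PUB24, at an unadjusted p under 0.05, beside 15.1% of all genes. PUB24 was 1.73-fold higher in the means (log2 0.79 ± 0.19, unadjusted p = 0.00212, adjusted p = 0.0641), with every lcs7 array above every Col-0 array. PUB43 showed the opposite sign, -0.40 ± 0.18 (adjusted p = 0.348), also with no overlap. These 2 genes of 9 without overlap compare with 21.4% of all genes. PUB23 differed by 0.73 ± 0.50 (adjusted p = 0.553), and the other 6 had adjusted p from 0.725 to 0.98.

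The calcium comparison in Col-0 asks what low calcium did in the wild type. None of the 9 genes was called by limma, beside 0.307% of all genes, and 1, PUB24, had an unadjusted p under 0.05, beside 17.5% of all genes. PUB24 was 2.13-fold higher at 0.3 mM in the means, with no overlap of arrays (log2 1.09 ± 0.19, unadjusted p = 0.000228, adjusted p = 0.0503). It was the 1 gene of 9 without overlap, beside 22.3% of all genes. PUB23 differed by 1.10 ± 0.50 (adjusted p = 0.293), and its arrays overlapped through the low replicate 1 at 0.3 mM. Without Col-0 replicates 2 and 3 at 0.3 mM, PUB23 came to 0.23 ± 0.60 and PUB24 to 0.95 ± 0.25 (adjusted p = 0.884 and 0.109). PUB26 then came to -1.17 ± 0.34 (adjusted p = 0.14), against -0.28 ± 0.37 with all arrays. PUB43 stood at -0.04 ± 0.18 (adjusted p = 0.946) with all arrays and at 0.32 ± 0.23 (adjusted p = 0.519) without them.

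**Figure D2:**
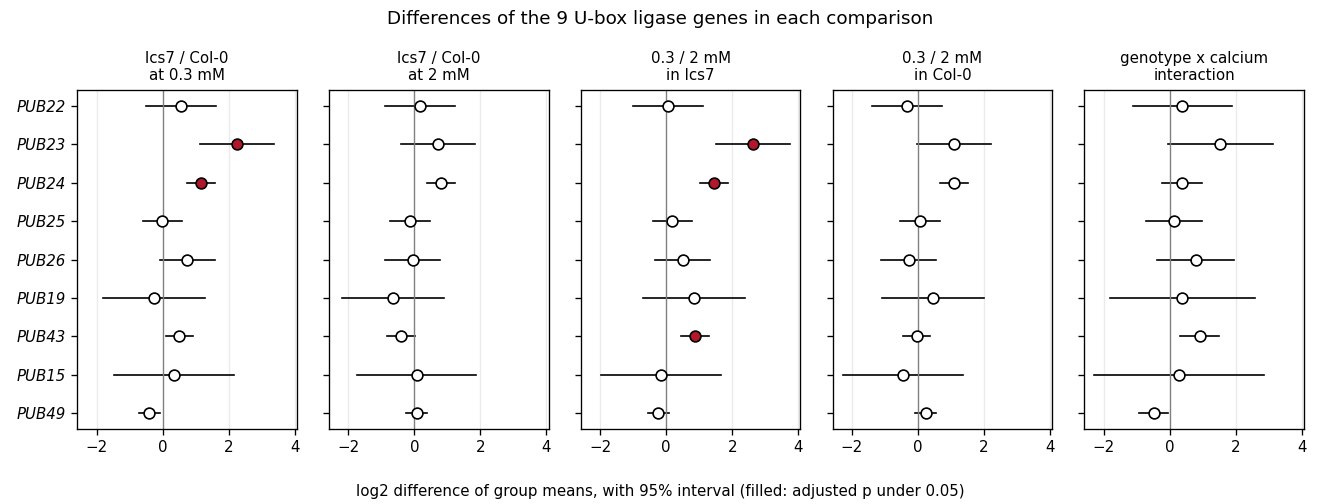
Log2 difference of group means (point) with its 95% interval (line) for the 9 U-box genes in 4 comparisons and for the interaction, with filled points for adjusted p under 0.05. The filled points are PUB23 and PUB24 for lcs7 against Col-0 at 0.3 mM, and PUB23, PUB24 and PUB43 for 0.3 against 2 mM in lcs7.

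Whether the genotypes differed in their calcium response was tested by the interaction, the calcium difference in lcs7 minus that in Col-0. None of the 9 genes passed in limma, beside 2.31% of all genes, and 2, PUB43 and PUB49, had an unadjusted p under 0.05, beside 16.4% of all genes. PUB43 came closest (0.91 ± 0.26, unadjusted p = 0.00655, adjusted p = 0.109), with a calcium difference of 0.87 in lcs7 and -0.04 in Col-0. It passed without replicate 1 of Col-0 at 0.3 mM (1.08 ± 0.23, adjusted p = 0.044) and came to 0.55 ± 0.28 (adjusted p = 0.433) without replicates 2 and 3. PUB49 had -0.48 ± 0.20 (adjusted p = 0.263). PUB26, at 0.79 ± 0.52 (adjusted p = 0.511), came to 1.67 ± 0.42 (adjusted p = 0.147) without replicates 2 and 3.

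For PUB24 the interaction was 0.37 ± 0.27 (adjusted p = 0.552), with an interval from -0.23 to 0.97. Its calcium differences, 1.46 in lcs7 and 1.09 in Col-0, were therefore not shown to differ, nor shown to be alike. PUB23 had a larger estimate with a wider error, 1.54 ± 0.70 (adjusted p = 0.321), the interval running from -0.05 to 3.12. Without Col-0 replicates 2 and 3 at 0.3 mM it came to 2.41 ± 0.74 (adjusted p = 0.211) and PUB24 to 0.51 ± 0.30 (adjusted p = 0.516). A call in lcs7 and none in Col-0 is thus no evidence for these genes that the genotypes responded differently.

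Scatter within groups separated PUB23 and PUB24. The pooled SD of log2 signal was 0.652 for PUB23 and 0.231 for PUB24, and 70.3 and 41.8% of all genes had a smaller one. PUB43, at 0.225, was close to PUB24. The dim PUB15 (1.06) and PUB19 (0.902) scattered most. PUB19 read 54.7, 35.4 and 26.8 in lcs7 at 0.3 mM and 32.3, 29.9 and 9.3 in lcs7 at 2 mM, against 33.8, 72.4 and 36.6 in Col-0 at 0.3 mM and 12.4, 69.2 and 40.5 in Col-0 at 2 mM. The lcs7 arrays at 2 mM lay just below those of Col-0 at 0.3 mM, and every other pair of groups overlapped.

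PUB25 and PUB26 varied together within groups. Across the 12 arrays, their deviations from their group means correlated at r = 0.82, and those of PUB23 and PUB26 at 0.73, whereas PUB23 and PUB24 had -0.17. The points of each pair share an array and so any offset of that array. In log2 signals, where group differences count as well, PUB23 and PUB24 had r = 0.86. Their likeness thus lay between the groups and not among the arrays of a group.

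Genes with the most similar pattern were sought among those with a mean signal of at least 50, by Pearson's r of log2 signal over the 12 arrays, a description in which the 4 group levels weigh most. For PUB23 these were ZCF37 (r = 0.969), AT2G25735 (0.969), AT1G72940 (0.965), AT1G05575 (0.958) and AT4G17900 (0.955). AT1G05575 came near PUB23 in size too, with geometric means of 1210 in lcs7 at 0.3 mM, 231 in lcs7 at 2 mM, 369 in Col-0 at 0.3 mM and 134 in Col-0 at 2 mM. AT4G17900 had a much shallower pattern, 1190 in lcs7 at 0.3 mM and 770 in lcs7 at 2 mM.

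PUB24 was most like AT5G60800 (r = 0.988), whose geometric means were 792 in lcs7 at 0.3 mM, 277 in lcs7 at 2 mM, 310 in Col-0 at 0.3 mM and 177 in Col-0 at 2 mM. AT3G09020, AT5G52810 and AT1G78410 followed at 0.965 each and AT3G25610 at 0.96. All 5 kept the order of PUB24's group means. The genes most like PUB43 were LD (r = 0.941), a homeodomain protein that promotes flowering, PRA1.A1 (0.94), AT4G15940 (0.933), AT1G22200 (0.932) and AT1G72950 (0.931). All 5 had their highest mean in lcs7 at 0.3 mM and their lowest in lcs7 at 2 mM. PUB24 was the 184th most similar gene to PUB23 of 8585 compared (r = 0.864).

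**Figure D3:**
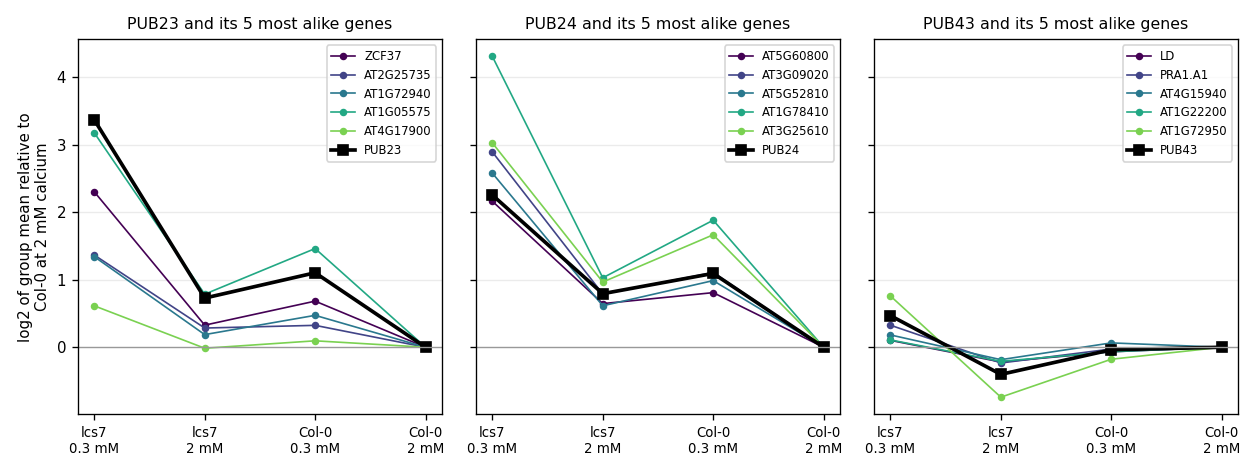
Log2 group means relative to Col-0 at 2 mM calcium for PUB23, PUB24 and PUB43 (black squares) and the 5 genes most like each (coloured circles), by group. The genes of the PUB23 and PUB24 panels peak in lcs7 at 0.3 mM calcium, and those of the PUB43 panel have their lowest point in lcs7 at 2 mM.

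ATL genes encode ligases of another kind, with a RING domain in place of the U-box. Of 4 measured, ATL63 fell in lcs7 against Col-0 at 0.3 mM (-1.09 ± 0.25, adjusted p = 0.0172) and ATL5 fell at 0.3 against 2 mM in lcs7 (-0.48 ± 0.15, adjusted p = 0.0498). These calls of 1 in 4 genes stand beside 16.8 and 21.8% of all genes. ATL8 was 1.7-fold higher in lcs7 against Col-0 at 0.3 mM in the means, without overlap of arrays, and just missed the threshold (0.77 ± 0.23, adjusted p = 0.0516). With an intensity trend 1 ATL gene was called higher there, as were 1188 of all 13356 genes. The fall of ATL5 was not called with that trend, with robust moderation or with a replicate block. Nor was it called with a mean over probe sets, with all single-gene probe sets or with only the compared groups. The fall of ATL63 was not called without Col-0 replicates 2 and 3 at 0.3 mM, nor without replicate 1 of that group, nor without replicate 1 or 3 of lcs7 at 0.3 mM.

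Of 16 listed partners and substrates of PUB proteins, 2 were measured. Both were called higher at 0.3 against 2 mM in lcs7, as were 10.0% of all genes. In lcs7 against Col-0 at 0.3 mM 1 was called higher, beside 6.99% of all genes. BIK1, the kinase on which PUB25 and PUB26 act, rose in lcs7 at 0.3 mM against both Col-0 at 0.3 mM (0.74 ± 0.21, adjusted p = 0.0408) and lcs7 at 2 mM (0.83 ± 0.21, adjusted p = 0.0214). The call against Col-0 was lost in 7 of the 12 fits that left out 1 array, each array of lcs7 at 0.3 mM and replicates 1 and 3 of Col-0 at 0.3 mM among them, and without Col-0 replicates 2 and 3 at 0.3 mM. RPN12a, a proteasome lid subunit bound by PUB22 and PUB23, rose at 0.3 against 2 mM in lcs7 (0.41 ± 0.11, adjusted p = 0.0235). RPN12a was not called there with median centring or with a replicate block. It was the 1 measured gene of the proteasome list, so the proteasome as a whole is not described.

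Of 10 genes known to answer early to microbial patterns, the setting in which PUB22, PUB23 and PUB24 are best known, 3 were measured and 2 rose at 0.3 against 2 mM in lcs7, where 10.0% of all genes were called higher. WRKY53, a transcription factor of defence and senescence, had geometric means of 1420 at 0.3 mM and 175 at 2 mM (3.02 ± 0.39, adjusted p = 0.000834). The zinc finger repressor STZ had 2950 at 0.3 mM and 377 at 2 mM (2.97 ± 0.57, adjusted p = 0.0058). WRKY22 was called in none of the comparisons. In lcs7 against Col-0 at 0.3 mM, where PUB23 and PUB24 were called, none of the 3 passed: WRKY53 differed by 1.26 ± 0.39 (adjusted p = 0.0537) and STZ by 1.67 ± 0.57 (adjusted p = 0.0778), and both had an unadjusted p under 0.05. With an intensity trend 2 of the 3 were called higher there, as were 1188 of all 13356 genes. At 0.3 mM the STZ arrays of the lines overlapped only through Col-0 replicate 2, at 1971.9 against 1903.4 on the lowest lcs7 array. In Col-0, WRKY53 differed by 2.22 ± 0.39 between 0.3 and 2 mM (adjusted p = 0.0503) and STZ by 1.78 ± 0.57 (adjusted p = 0.16). The STZ value leaned on replicates 2 and 3 of Col-0 at 0.3 mM, the arrays that stood apart. STZ read 416.2, 1971.9 and 966.2 there in replicates 1, 2 and 3, against 257.8, 211.2 and 360.5 in Col-0 at 2 mM. WRKY53 read 503.3, 831.6 and 492.8 at 0.3 mM, against 160.0, 105.9 and 120.4 at 2 mM.

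On the drought side, where PUB19, PUB22 and PUB23 act, 1 of 12 listed genes was measured. COR47, a dehydrin of cold and dehydration, fell in lcs7 at 0.3 mM against Col-0 at 0.3 mM (-1.85 ± 0.19, adjusted p = 0.00056) and against lcs7 at 2 mM (-2.21 ± 0.19, adjusted p = 0.000235). In this comparison within lcs7, COR47 thus moved opposite to PUB23 and PUB24. Unlike the PUB genes, COR47 was also called for the interaction (-1.65 ± 0.28, adjusted p = 0.0222), though not with a replicate block.

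Some markers of the tissue also differed between the same groups. Of 14 shoot markers 2 were measured, and RCA, the activase of Rubisco, was bright in every group, with a geometric mean of 17400 in lcs7 at 0.3 mM, 24000 in lcs7 at 2 mM and 23100 in each Col-0 group. It fell in lcs7 at 0.3 mM against Col-0 at 0.3 mM (-0.41, adjusted p = 0.0121) and against lcs7 at 2 mM (-0.47, adjusted p = 0.00484). FAMA, a factor of guard cells, fell at 0.3 against 2 mM in lcs7 (-0.75, adjusted p = 0.0248), with group means of 183 at 0.3 mM and 308 at 2 mM. Both shoot markers were thus called lower in that comparison, as were 1573 of all 13356 genes. In lcs7 against Col-0 at 0.3 mM 1309 genes were called lower. Of 12 root markers 3 were measured, and EXP7 and EXP18, expansins of root hairs, were not called, with group means from 15.1 to 74.0. At 0.3 against 2 mM in lcs7 both were lower in the means (-0.90 ± 0.64 and -0.60 ± 0.29, adjusted p = 0.368 and 0.178). In lcs7 against Col-0 at 2 mM, EXP7 was higher in the means (1.29 ± 0.64, adjusted p = 0.383). Its arrays did not overlap there, beside 21.4% of all genes. EXP18 was lower there in the means (-0.21 ± 0.29, adjusted p = 0.798). PYK10, a beta-glucosidase abundant in roots, had 5780 in lcs7 at 0.3 mM, 2670 in lcs7 at 2 mM, 1530 in Col-0 at 0.3 mM and 984 in Col-0 at 2 mM. It rose in lcs7 against Col-0 at both calcium levels and at 0.3 against 2 mM in lcs7. The part of tissue make-up in the PUB results was not tested.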

How the data were processed

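The deposited data are linear probe set intensities, 22746 on each of 12 arrays. Per the submitters' processing notes the authors used RMA and oligo 1.32.0, but the values are neither log2 nor on shared quantiles, so the summarisation behind them is not known. The platform annotation named 1 gene for 13513 probe sets, and the probe set with the highest mean log2 intensity was kept per gene, which left 13356. Intensities were taken to log2 with no offset and fitted with limma 3.58.1 in R 4.3.3, with 1 mean per group over all arrays, tests 2-sided, and p-values adjusted by Benjamini-Hochberg across genes. The 3 arrays per group set the precision. The script was tested on simulated data.

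The 9 genes and the lists were chosen with earlier results of these data known. One list is not reported here. All 9 genes were reported, those called per array, with up to 4 called genes per list and the 5 most similar genes for PUB23, PUB24 and PUB43. Alternatives were other moderation, array weights, quantile normalization, median centring, filters, an offset of 50, smaller fits, a replicate term and leaving out arrays. Same-numbered arrays correlated at -0.037 to 0.05 in their deviations from group means, so the numbers do not pair them. Python 3.11.15 (pandas 2.3.3, numpy 2.4.6) made the tables and matplotlib 3.10.9 the figures.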

Additional observations from a re-analysis of the deposited data

How the results depend on the processing

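At 0.3 against 2 mM calcium in lcs7, the calls of PUB23, PUB24 and PUB43 held in every alternative run, except that PUB43 lies under a fold of 2, which leaves 2 of the 3. Counts moved elsewhere. For lcs7 against Col-0 at 0.3 mM, the count of 2 was 4 with an intensity trend and without the 40% dimmest genes (PUB43 and PUB49 added), 3 with quantile normalization, median centring and an offset of 50 (PUB49 added, adjusted p = 0.0439, 0.0416 and 0.0481), 3 without Col-0 replicates 2 and 3 at 0.3 mM (PUB26 added), 1 when the fit held only both compared groups (PUB24, with PUB23 at adjusted p = 0.055), and from 1 to 3 with each array left out. For lcs7 against Col-0 at 2 mM, the count of 0 was 1 (PUB24) with an intensity trend, quantile normalization, median centring, without the 40% dimmest genes and with an offset of 50, and from 0 to 1 with each array left out, PUB24 passing without Col-0 replicate 3 at 0.3 mM (adjusted p = 0.0486). For calcium in Col-0, the count of 0 was 1 (PUB24) with an intensity trend, quantile normalization, without the 40% dimmest genes and with an offset of 50, and from 0 to 1 with each array left out, PUB24 passing without lcs7 replicate 1 at 2 mM (adjusted p = 0.0315). For the interaction, the count of 0 was 1 (PUB43) with an intensity trend, without the 40% dimmest genes and with an offset of 50, and from 0 to 1 with each array left out. Calls over all genes moved too. For lcs7 against Col-0 at 0.3 mM they went from 2243 of 13356 to 2773 with an intensity trend and 2837 with the offset. At 2 mM they went from 367 to 649 and 617. For calcium in Col-0 they went from 41 to 721 and 480, and for the interaction from 308 to 750 and 794. In that order they were 2779, 653, 667 and 780 of 8014 without the 40% dimmest genes. Quantile normalization gave 2376, 381, 59 and 339, and median centring 2293, 347, 25 and 248. The cause of these changes was not tested. With the replicate block, PUB23 and PUB24 kept their calls for lcs7 against Col-0 at 0.3 mM (2.26 ± 0.54 and 1.16 ± 0.18, adjusted p = 0.0315 and 0.00755), the block changed no call among the 9 genes, and 4 of 12 arrays correlated best with their own number. Signals near background limit PUB15 and PUB19, and 3 arrays per group could not reach an exact permutation p under 0.1.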
